A study of Caenorhabditis elegans with 4 samples.

Results

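Chromosome V, the longest chromosome of the nematode Caenorhabditis elegans, carried 6370 of 30000 NHR-237 peaks in ChIP replicate 1 and 6283 of 30000 in ChIP replicate 2. It carried only 8 of the 89 peaks of the list that the authors combined over both replicates. The regions described here are all peaks that the deposited lists place on V, whatever their strength. Peaks came from chromatin immunoprecipitation and sequencing (ChIP-seq), in which DNA fragments bound by a protein are collected with an antibody and sequenced, and a peak is a stretch where fragments pile up. Hermaphrodites of strain OP228 were raised at 20 °C to the L3 larval stage. They carry the unc119(ed3) mutation and the transgene wgIs228, in which nhr-237 is joined to TY1, EGFP and FLAG tags, together with a copy of unc119. The 2 ChIP samples and the 2 input samples, the input being total chromatin DNA of the same worms, share this genotype, stage and temperature. The transgene was introduced by bombardment, and whole larvae were used, so each peak averages over all cells of the animal. Peaks of input samples and of untagged worms were not analysed here.

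The nuclear hormone receptors, of which NHR-237 is one, are transcription factors with a zinc-finger DNA-binding domain and, in most members, a ligand-binding domain. The family is much enlarged in nematodes, largely through copies of an ancestor related to vertebrate HNF4. Chromosome V is where most of these copies lie. In the RefSeq gene table of the WBcel235 assembly, 167 of 269 protein-coding genes with an nhr symbol are on V (62.1%), nhr-237 among them, while V holds 25.0% of all protein-coding genes. Autosomes of this worm have gene-rich centres with little recombination, flanked by arms that recombine more and hold more repeats. X is distinct in that the dosage compensation complex binds it along its length in hermaphrodites.

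Peak positions are on the WormBase WS220 build, and all peaks of a list have 1 width, 490 bp in replicate 1, 480 bp in replicate 2 and 520 bp in the combined list. Each peak bears a number in its name, counted from 1 within its list, and here a low number is called early. What the number and the authors' score measure is not given in the sources used here. Sequencing depth is unknown, and the labels do not say whether the replicates are separate cultures. The p-values below cover only the number of peaks within these samples. They also treat peaks as independent, although the V peaks merge into 5453 separate regions in replicate 1 and 5363 in replicate 2. Which genes lie under the peaks was not analysed, since no annotation of the WS220 build was used here.

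The 8 combined peaks on V were spread over its whole length and none was among the 16 earliest of the combined list. The earliest was combined peak 17 at V:1151240-1151759, with an authors' score of 1.04. It matched peak 19 of replicate 1 and peak 16 of replicate 2, so it stood near the top of both lists. Combined peak 20, at V:14685477-14685996 with a score of 0.477, matched peak 20 of replicate 1 and peak 70 of replicate 2. Combined peak 29, at V:19622280-19622799 with a score of 0.165, matched peak 72 of replicate 1 and peak 31 of replicate 2. These 3 were the only V regions numbered within the first 100 of both replicates, and also the only V peaks of the combined list with a score above 0.

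The other 5 combined peaks on V had scores below 0 and were within the first 100 of at most 1 replicate. Combined peak 41, at V:4011630-4012149, matched numbers 67 and 367 in replicates 1 and 2. Combined peak 62, at V:10896814-10897333, matched numbers 84 and 456. These regions were within the first 100 of replicate 1 alone. Combined peak 58, at V:9874979-9875498, matched numbers 416 and 109. Combined peak 72, at V:19642924-19643443, matched numbers 164 and 996. Combined peak 88, at V:20489457-20489976, matched numbers 570 and 206, so the last 3 regions were outside the first 100 in both replicates. Replicate 1 gave the lower number in 4 of the 8 regions and replicate 2 in the other 4.

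V held about its share of length in the full lists and less in the combined list. In the full lists V had 21.2% of the peaks of replicate 1 and 20.9% of those of replicate 2, next to 20.9% of the summed chromosome span. In the combined list V had 9.0% of the peaks, or 8, where its 20.9% of the span gives 18.6. This low count was known when V was chosen for description, so it is given without a test. Per 10 Mb this is 3.82 combined peaks on V, against 5.98 on I, 8.00 on IV, 10.2 on III, 11.8 on II and 14.7 on X. V was lowest of the 6, and its neighbour in this order, I, had 9 peaks on a shorter chromosome. With X set aside, V held 8 of 63 autosomal combined peaks (12.7%) against 25.4% of the autosomal span. Among the leading 89 peaks of 1 replicate alone, V held 13 in replicate 1 (14.6%) and 10 in replicate 2 (11.2%). The limit of 89 was taken from the combined list, so these counts are not independent of the known deficit and are given without a test.

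Among peaks numbered 1 to 100, V held 16 in replicate 1 (16.0%, interval 9.43 to 24.7) and 14 in replicate 2 (14.0%, interval 7.87 to 22.4), against 20.9 given by length. Neither count passed the two-sided exact binomial test after Benjamini-Hochberg adjustment over the 6 classes (adjusted p = 0.403 and 0.326). These peaks include regions of the combined list, so both counts are not independent of the known deficit. Among peaks numbered above 100 and up to 1000, V held 210 of 900 in replicate 1 (23.3%, interval 20.6 to 26.2) and 188 of 900 in replicate 2 (20.9%, interval 18.3 to 23.7), against 187.9 given by length (exact binomial adjusted p = 0.326 and 1). Above number 1000, V held 6144 of 29000 (21.2%, interval 20.7 to 21.7) and 6081 of 29000 (21.0%, interval 20.5 to 21.4), and neither passed (exact binomial adjusted p = 0.382 and 0.823).

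Other class limits placed the low share of V at the start of the lists. With a first class of 50 peaks, V held 3 in replicate 1 (6.0%) and 4 in replicate 2 (8.0%). With a first class of 200 peaks it held 27 in each replicate (13.5%). These peaks include regions of the combined list. The counts are therefore not independent of the known deficit and are given without a test. Ordered by score in place of number, the first 100 of replicate 2 held 22 on V, above its share of length. Score did not fall steadily with number, however. In replicate 2, V peak 97 scored -0.229 and V peak 20865 scored -0.00767. Ordering by score can thus place late peaks before early ones, so this count does not re-rank the early peaks. Many of the first 100 peaks were on X, 38 in replicate 1 and 26 in replicate 2. Of the 62 autosomal peaks among the first 100 of replicate 1, V had 16 (25.8%, against 25.4% of the autosomal span). Of the 74 in replicate 2 it had 14 (18.9%). In replicate 1 the low share of V among the first 100 was thus not seen once X was set aside. Shares without X were not computed for the first 50 or the first 200, so this holds for the limit of 100 only.

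**Figure D1:**
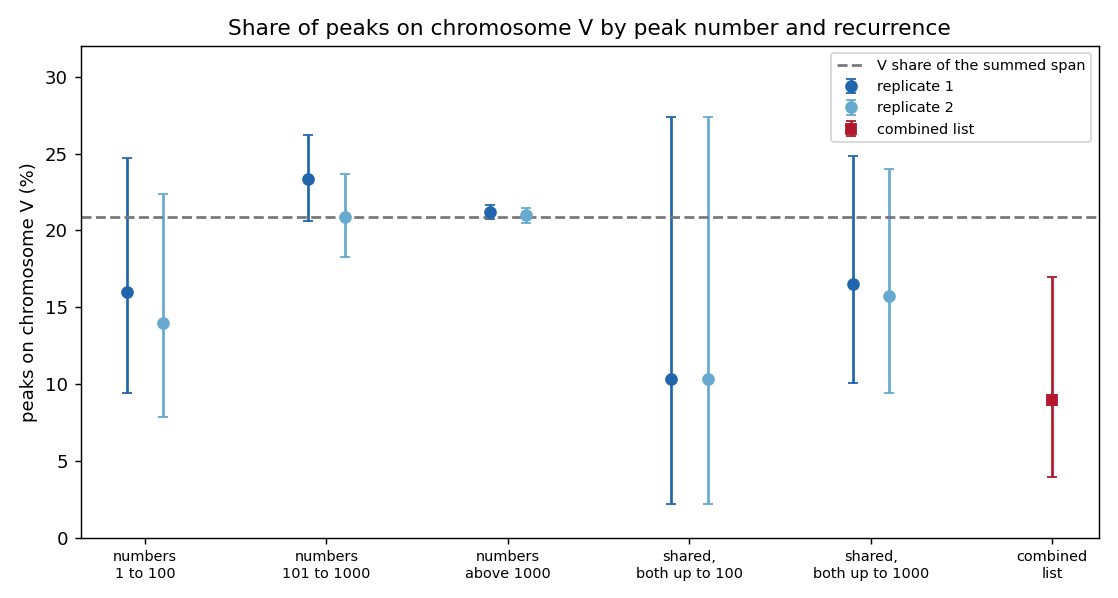
Percentage of peaks lying on chromosome V (vertical axis) among replicate peaks of 3 number classes, among peaks shared within the same number limit, and in the combined list; bars are 95% Clopper-Pearson intervals and the dashed line is the V share of the summed span. Classes beyond number 100 lie at 20.9% to 23.3%, the combined list at 9.0%. The bar of the combined list is no test, as its low count was known when V was chosen.

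The earliest V peaks of each replicate mostly lacked an early counterpart in the other. In replicate 1 the 5 V peaks of lowest number were 19, 20, 35, 51 and 56. Peak 35, at V:18752951-18753440, met peak 20865 of replicate 2 at the earliest, and peak 56, at V:12499968-12500457, met peak 7628. Peak 51, at V:1991799-1992288, met no replicate 2 peak. In replicate 2 the 5 V peaks of lowest number were 16, 22, 31, 32 and 55. Peak 22, at V:543530-544009, met peak 8289 of replicate 1. Peaks 32 and 55, at V:10594324-10594803 and V:9446189-9446668, met none. Thus 2 of these 5 in each replicate, which are the regions of combined peaks 17, 20 and 29, were matched by an early peak.

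Over all 16 V peaks numbered 1 to 100 in replicate 1, the earliest overlapping replicate 2 peak was numbered 1 to 100 in 3 cases, above 100 and up to 1000 in 3 and beyond that in 8, and 2 had none. The 84 such peaks on the other chromosomes gave 26, 10, 33 and 15. Of the 14 V peaks numbered 1 to 100 in replicate 2, 3 met a peak numbered 1 to 100, 1 a peak numbered above 100 and up to 1000 and 5 a later one, and 5 had none. The 86 on the other chromosomes gave 26, 6, 39 and 15. A late counterpart was therefore common on V and elsewhere. Replicate peaks covered 13.9% of V in replicate 1 and 13.5% in replicate 2, and the part of this coverage in such overlaps was not tested.

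**Figure D2:**
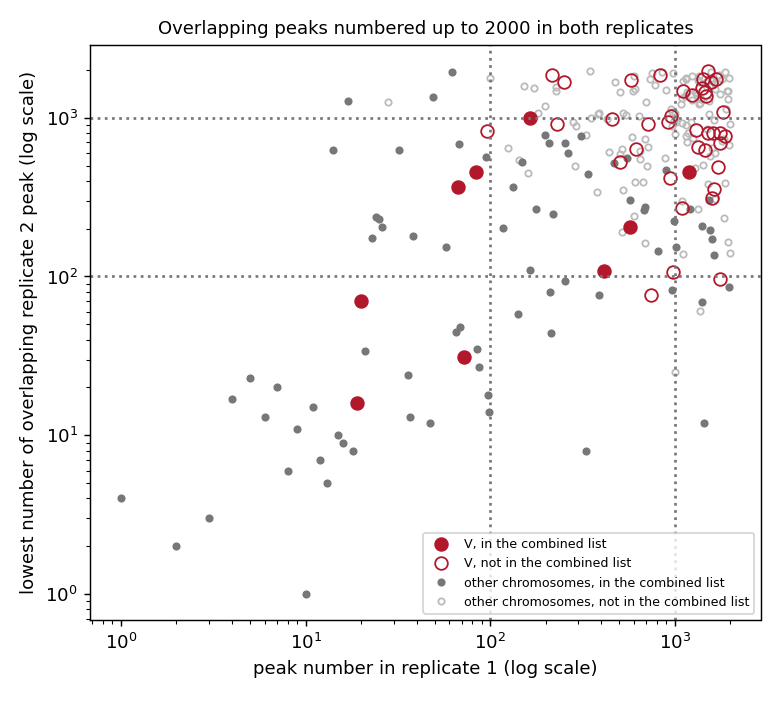
Peak number in replicate 1 (horizontal) against the lowest number of an overlapping replicate 2 peak (vertical), both on log scales, for replicate 1 peaks where both numbers are at most 2000; dotted lines mark 100 and 1000, red marks V, filled symbols overlap a combined peak. Of the V symbols, 3 lie within 100 in both replicates and 18 within 1000, and 9 filled V symbols overlap the 8 combined peaks of V.

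Recurrence is the share of peaks that overlap any peak of the other replicate by 1 bp or more. Over all chromosomes and numbers it was 45.8% in replicate 1 and 45.8% in replicate 2. On V it was 44.9% in replicate 1 (2858 peaks) and 45.6% in replicate 2 (2864 peaks), against 46.1% and 45.8% on the other 5 chromosomes. V peaks as a whole thus recurred about as often as the background.

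On V, recurrence was higher within number 1000 than beyond it, as on the other chromosomes, and V did not pass the test of a difference from them in any class. For numbers 1 to 100, 14 of 16 V peaks of replicate 1 recurred (87.5%, interval 61.7 to 98.4), against 69 of 84 elsewhere (82.1%), with 83.0% over all chromosomes. For replicate 2 it was 9 of 14 on V (64.3%, interval 35.1 to 87.2), against 71 of 86 elsewhere (82.6%), with 80.0% over all chromosomes. The replicates stood on opposite sides of the other chromosomes. With so few V peaks, these intervals are too wide to place V above or below the rest.

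For numbers above 100 and up to 1000 the V shares were 61.9% in replicate 1 (130 of 210) and 66.5% in replicate 2 (125 of 188), against 63.2% and 62.5% elsewhere, with 62.9% and 63.3% over all chromosomes. Above number 1000 they were 44.2% (interval 42.9 to 45.4) and 44.9% (interval 43.6 to 46.2), against 45.5% and 45.2% elsewhere, with 45.2% and 45.1% over all chromosomes. Differences between V and the rest ran from -18.3 to 5.36 percentage points. Two-sided Fisher's exact tests gave adjusted p from 0.440 to 1 over the 6 comparisons. Among the early V peaks of replicate 1 the side depended on the definition of overlap. With an overlap of 50% or more of each peak required, 11 of 16 recurred (68.8%), against 81.0% elsewhere.

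**Figure D3:**
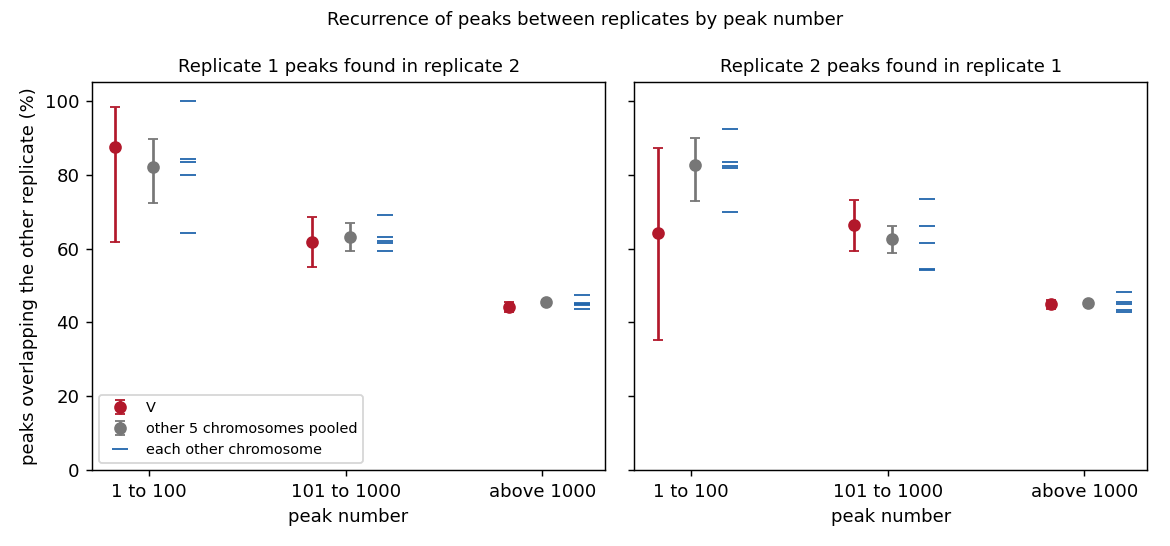
Percentage of replicate peaks overlapping a peak of the other replicate (vertical axis) in 3 classes of peak number, for V, for the other 5 chromosomes pooled (both with 95% Clopper-Pearson intervals) and for each of those 5 alone. V runs from 87.5% and 64.3% in the first class to 44.2% and 44.9% in the last.

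Overlap with a peak that is early in both replicates gave lower values on V, without passing a test. This comparison was added after the data were seen. Of V peaks numbered 1 to 100, 3 of 16 in replicate 1 (18.8%) and 3 of 14 in replicate 2 (21.4%) met a peak numbered 1 to 100 in the other, with 29.0% over all chromosomes in replicate 1 and 29.0% in replicate 2. On the other chromosomes the shares were 31.0% and 30.2%. Most of those were on X, where 17 of 38 peaks of replicate 1 and 17 of 26 of replicate 2 were shared. On I, II, III and IV, between 1 and 4 peaks per chromosome were shared, and the 3 on V lie within that range. As shares these ran from 10.0% to 33.3% in replicate 1 and from 9.09% to 20.0% in replicate 2. Pooled, the other autosomes had 19.6% in replicate 1 and 15.0% in replicate 2. Without X, V was thus slightly lower in replicate 1 and higher in replicate 2.

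With the limit at 1000 in both replicates, 18 of 226 V peaks of replicate 1 were shared (7.96%, interval 4.79 to 12.3), against 91 of 774 elsewhere (11.8%, interval 9.57 to 14.2), with 10.9% over all chromosomes. In replicate 2 it was 17 of 202 on V (8.42%, interval 4.98 to 13.1), against 91 of 798 elsewhere (11.4%, interval 9.28 to 13.8), with 10.8% over all chromosomes. The adjusted p of the 4 two-sided Fisher's exact tests at both limits ran from 0.463 to 0.752. Only I was lower than V, at 4.88% and 4.80%, while II, III, IV and X had 10.3% to 14.9% in replicate 1 and 11.0% to 13.4% in replicate 2. Among shared peaks within number 5000, V again held 21.9% in replicate 1 and 21.3% in replicate 2, near its 20.9% of the span.

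The low count of combined peaks on V can also be read as a share of early peaks. Of V peaks numbered 1 to 1000, 8 of 226 in replicate 1 (3.54%) overlapped a combined peak, against 71 of 774 on the other chromosomes (9.17%), with 7.9% over all chromosomes. In replicate 2 it was 8 of 202 on V (3.96%), against 78 of 798 elsewhere (9.77%), with 8.6% over all chromosomes. On the other autosomes alone 8.20% and 9.12% overlapped a combined peak. With the limit at number 500, it was 7 of 104 V peaks of replicate 1 (6.73%), against 15.7% elsewhere, and 7 of 80 of replicate 2 (8.75%), against 15.5% elsewhere. Since V held about its share of length among early peaks and 8 combined peaks, these shares restate the known deficit over the same 8 regions and are given without a test.

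Of V peaks numbered up to 1000 in both replicates, 8 of 18 in replicate 1 (44.4%) and 8 of 17 in replicate 2 (47.1%) were in the combined list. Elsewhere it was 63 of 91 in replicate 1 (69.2%) and 64 of 91 in replicate 2 (70.3%). This step was added after the data were seen. The values depended on the limit. Within number 500 in both replicates, all 6 V peaks were in the combined list, against 93.6% elsewhere in replicate 1 and 93.8% in replicate 2. Within number 2000 it was 9 of 47 V peaks in replicate 1 (19.1%), against 38.0% elsewhere, and 8 of 44 in replicate 2 (18.2%), against 38.4% elsewhere. The 8 combined regions are again the same, so these shares are not independent of the known deficit and are given without a test. The 6 V peaks within 500 were among 53 such peaks over all chromosomes in replicate 1 (11.3%) and 54 in replicate 2 (11.1%), next to 20.9% by length. All 6 are combined regions, so these shares are given without a test as well.

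The 10 replicate 1 peaks on V within number 1000 in both lists but outside the combined list had a median number of 665.5 in replicate 1 (96 to 973) and 733.5 in replicate 2 (77 to 979). For the 8 in the combined list the medians were 78 (19 to 570) and 157.5 (16 to 996), so the ranges overlapped. On the other chromosomes the medians were 523.5 and 600.5 outside the combined list, against 85 and 82 inside it, the same order as on V. A pair of them, at V:15002060-15002549 and V:15002411-15002900, met the same replicate 2 peak, numbered 917. Midpoints also lay further apart in these 10, by 35 to 375 bp between replicates, while the 8 in the combined list had midpoints 2 to 33 bp apart. The ranges of distance did not overlap on V, where the medians were 6 bp inside the combined list and 97.5 bp outside it. On the other chromosomes the median distances were 41 bp for pairs in the combined list and 39 bp for the rest, so the medians were alike there. Ranges were not computed for the other chromosomes. The contrast in distance was noticed after the values were seen and was not tested.

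Along V, replicate peaks were dense in the middle and thinnest in windows 19 and 20, near but not at the right end. Counts in the 20 full windows of 1 Mb ran from 225 through a median of 314.5 to 350 in replicate 1, and from 192 through 301.5 to 381 in replicate 2. The highest full window was number 14, counted from the left end, in replicate 1 (350 peaks) and number 13 in replicate 2 (381 peaks). Window 20 was lowest in both, with 225 and 192 peaks. The last, incomplete window of 0.923 Mb held 274 and 242, more than windows 19 and 20 although it is shorter. The 77 full windows of the other chromosomes had medians of 308 and 311 and a wider range, 158 to 379 and 166 to 379. Over the 20 windows of V, counts of the replicates followed each other (Pearson's r = 0.86, Spearman's rho = 0.77). This is a description across windows, which share the libraries and the mappable sequence.

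Peaks numbered 1 to 1000 ran from 5 to 20 per full window in replicate 1, and from 6 to 18 in replicate 2, with window 12 highest in both. Combined peaks lay in windows 2, 5, 10, 11, 15, 20 and 21, too few to compare with this density. Window 20, the thinnest in both replicates, had a pair of them, combined peaks 29 and 72, with 20.1 kb between them. With combined peak 88, in window 21, 3 of the 8 lay in the last 2 windows. Gaps between the other neighbours ran from 0.846 to 5.86 Mb.

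**Figure D4:**
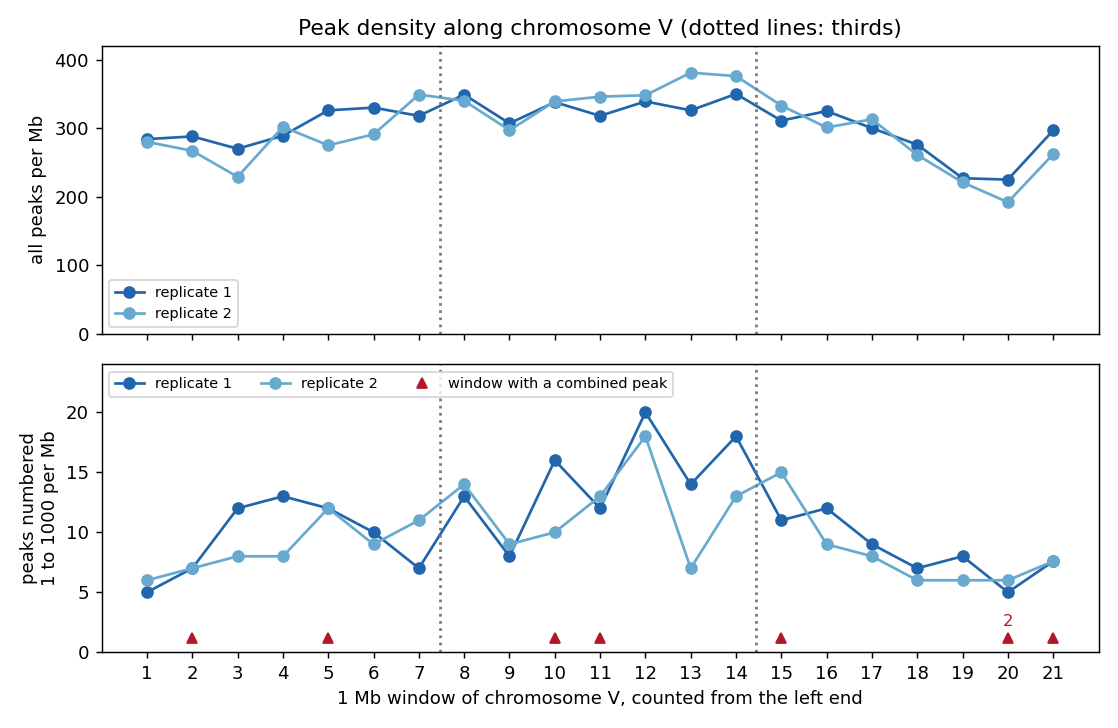
Replicate peaks per Mb in the 21 windows of chromosome V, counted from the left end, for all peaks (upper panel) and for those numbered 1 to 1000 (lower panel), with windows holding a combined peak marked by triangles and the window holding 2 labelled. Density is lowest in windows 19 and 20, and combined peaks lie in 7 windows.

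Cut into 3 equal parts of 6.97 Mb, V held more peaks in the middle than at the ends. The middle part had 2319 peaks in replicate 1 (36.4%, interval 35.2 to 37.6) and 2422 in replicate 2 (38.5%, interval 37.3 to 39.8), where length gives 33.3% (adjusted p = 4.99e-07 and 1.78e-17, two-sided exact binomial test). The left part held 2097 and 1985 and the right part 1954 and 1876. Density in the middle was 332.5 peaks per Mb in replicate 1, against 301 on the left and 280.2 on the right. In replicate 2 these were 347 per Mb, against 285 and 269. The other 5 chromosomes placed 36.8% (replicate 1) and 37.1% (replicate 2) in their middle parts, and V did not pass the test of a difference from them (two-sided Fisher's exact adjusted p = 0.598 and 0.0535).

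Of the V peaks numbered 1 to 1000, the middle part held 99 of 226 in replicate 1 (43.8%) and 84 of 202 in replicate 2 (41.6%). The other autosomes gave like shares, from 40.7% on I to 45.5% on III in replicate 1, and from 41.2% on II to 45.6% on I in replicate 2. Early peaks were not tested against all peaks in this respect. Among the first 100, the left, middle and right parts held 3, 7 and 6 in replicate 1 and 4, 6 and 4 in replicate 2. Of the combined peaks, 2 were in the left part, 2 in the middle and 4 in the right. With 8 peaks, no preference for a part could be read from these counts.

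Recurrence was higher in the middle part of V in replicate 1, at 47.9% of 2319 peaks (interval 45.8 to 49.9), against 43.1% of 4051 in the outer parts (interval 41.6 to 44.7; two-sided Fisher's exact adjusted p = 0.000604). In replicate 2 it was 46.4% against 45.0% and did not pass (two-sided Fisher's exact adjusted p = 0.286). Peak density was also higher in the middle part, and its part in the overlap was not tested. The call in replicate 1 was lost with an overlap of 50% or more of each peak, at 36.7% against 34.3% (Fisher's exact adjusted p = 0.120). It was also lost with midpoints within 100 bp, at 23.8% against 22.5% (Fisher's exact adjusted p = 0.479).

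**Figure D5:**
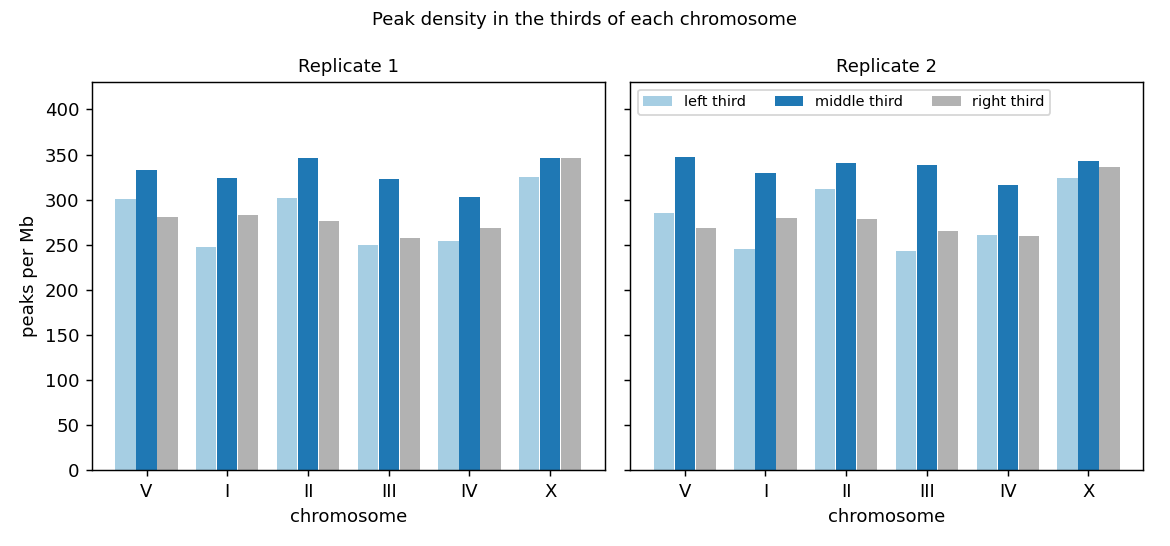
Replicate peaks per Mb (vertical axis) in the left, middle and right of 3 equal parts of each chromosome, V first, for replicate 1 (left panel) and replicate 2 (right panel). The middle part is highest on all 6 chromosomes in both replicates; on V it had 332.5 and 347 peaks per Mb.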

How the data were processed

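Per the labels' protocols, worms were crosslinked in 2% formaldehyde and sonicated, and tagged NHR-237 was collected with anti-GFP antibodies. The authors deposited 3 peak lists, with positions on WormBase WS220 and SPP through an irreproducible discovery rate step, per the file headers and source column. The score is the authors' deposited value, of unstated scale. For the aligner, the threshold, the use of the input and the assembly of the combined list: not given in the sources used here.

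Samples were grouped by title. Chromosomes, number classes (1 to 100, beyond that up to 1000, above 1000) and lists were chosen with earlier results of these data known. Chromosome span was the end of the last replicate peak, 20.9 Mb for V and 100.2 Mb in all. Overlap meant at least 1 bp, and the partner was the overlapping peak of lowest number. Peaks were assigned to windows and to 3 equal parts by midpoint. Named regions are the combined peaks on V, V regions within the first 100 of both replicates, the 5 earliest V peaks per replicate, and the extreme windows. Others, named after their values were seen, are the pair meeting peak 917. Intervals are 95% Clopper-Pearson. Tests were exact binomial and Fisher's, two-sided at 0.05, adjusted by Benjamini-Hochberg within each family. Overlap code was tested on simulated data. Python 3.11.15, numpy 2.4.6, scipy 1.17.1, pandas 2.3.3 and matplotlib 3.10.9 were used. Alternatives covered overlap, class limits, ordering, background and merging.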

Additional observations from a re-analysis of the deposited data

How the results depend on the processing

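Of 114 alternatives to 27 results, 80 kept direction and side of the threshold, 5 lost the call, 9 gained one and 20 changed direction, none of these past the threshold. The counts include the results on the combined list, which rest on the low count known when V was chosen. They also include the first-class shares of V, which are not independent of that low count. For that deficit they are no measure of robustness. Values are percentage points of V minus its comparison. The deficit of V in the combined list, -11.9 and known beforehand, was -9.64 and -6.27 in the leading 89 peaks of one replicate alone, without replicate 1 and without replicate 2. These values are not independent of the known deficit and are given without a test.

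For the V share of peaks, class limits of 50 and 500 gave -14.9 in the first class of replicate 1 and -3.98 in the second of replicate 2. Limits of 200 and 2000 gave -7.37 in the first class of both. These first-class values are not independent of the known deficit and are given without a test. Ordering by score gave 1.13 in the first class of replicate 2, and -0.43 and -0.21 in the second class of replicates 1 and 2. That order does not follow the numbers, since late peaks can score above early ones. The list as background gave -0.054 in the second class of replicate 2 and -0.047 in the last of replicate 1. Autosomes alone gave 0.45 in the first class of replicate 1, and passed at 4.10 in its second and at 1.11 and 0.72 in the last class of replicates 1 and 2.

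For recurrence, requiring 50% of each peak gave -12.2 in the first and 1.22 in the second class of replicate 1. Midpoints within 100 bp gave -14.0 and 3.17 there, and -2.43 and 0.21 in the second and last class of replicate 2. Limits of 200 and 2000 gave 4.16 in the second class of replicate 1, and autosomes alone 0.73 in the last of replicate 2. Peaks within 100 in both replicates gave 6.43 for replicate 2 on autosomes alone.

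Early peaks in the combined list, which restate the known deficit of V in that list, gave -6.73 for replicate 2 up to number 500. Shared early peaks in the combined list, not independent of it either, gave 6.38 and 6.25 up to 500, and -18.9 and -20.2 up to 2000. The middle part of V against the others gave 0.44 in the first 15000 numbers of replicate 1, and 1.63 in the middle 2 of 4 parts of replicate 2, past the threshold. Recurrence in the middle against the outer parts lost its call in replicate 1, at 2.36 with 50% of each peak, 1.32 with midpoints and 3.10 in the first 15000 numbers, and was -0.80 with midpoints in replicate 2. The cause of these changes was not tested, apart from the smaller sets that some settings make by construction. Comparisons on autosomes alone, shared early peaks and their presence in the combined list were added after the data were seen. No paired analysis was possible because only ChIP samples had peak lists used here. Unknown depth limits any statement on regions missing from a list.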
